A study of Rattus norvegicus with 12 samples.

Results

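The genes described here are 18 of the 32622 Ensembl rat gene identifiers in the deposited count table. They were chosen by their measured levels: in induced cells they stood higher after unloading than in control cells, and before induction they lay near the control level. The cells are fibro-adipogenic progenitors of rat soleus muscle, grown as primary cultures and labelled as 6 groups with 2 libraries in each. The donors were control rats or rats kept in hindlimb suspension for 7 days (HS7) or 14 days (HS14), and each kind of culture was taken at days 0 and 3 of adipogenic differentiation. The induction medium held insulin and dexamethasone, each at 1 μM, and the phosphodiesterase inhibitor IBMX at 0.5 μM. No group was kept for 3 days without this medium, so time in culture is part of every difference between the days. The labels give no age or strain, and they do not tie the libraries of a group to different animals or dishes. A p-value below is therefore read against the scatter of these libraries only, and that scatter may be technical.

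Fibro-adipogenic progenitors are mesenchymal cells that lie between the fibres of skeletal muscle. They support repair of the muscle, and they are also a source of the fat and the scar tissue that can build up in it. In hindlimb suspension the hind legs carry no weight, and the soleus, a postural muscle, loses mass. Insulin and dexamethasone act through the insulin receptor and the glucocorticoid receptor. IBMX blocks phosphodiesterases, which can raise cyclic AMP. Mixtures of these compounds are commonly used to start fat cell formation in culture. The doses given above are those of the labels, and the data hold no measure of cyclic AMP.

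The choice was made on CPM, the counts scaled to a library total of 1000000, averaged over the 2 libraries of a group, with 0.5 added. A member had a day 3 ratio to control of at least 1.7 in both HS7 and HS14 cells, at least 5 CPM in HS14 cells at day 3, and day 0 ratios to control between 0.6 and 1.6 in both. Of 9606 identifiers with at least 5 CPM in HS14 cells at day 3, 54 passed both day 3 limits. Of these 54, 36 lay outside the day 0 limits and 18 were left. The rule also names 1 identifier to leave out, but that gene was outside the day 0 limits in any case. None of the identifiers could be paired with a gene symbol in the tables used here, so no member can be given a function, and the labelled cell type was not checked against marker genes. The members are numbered 1 to 18 by the lower of their 2 day 3 ratios, from the highest down. Identifiers are printed for 4 of them, those with the largest fitted rises and falls in control cells between day 0 and day 3.

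**Figure D1:**
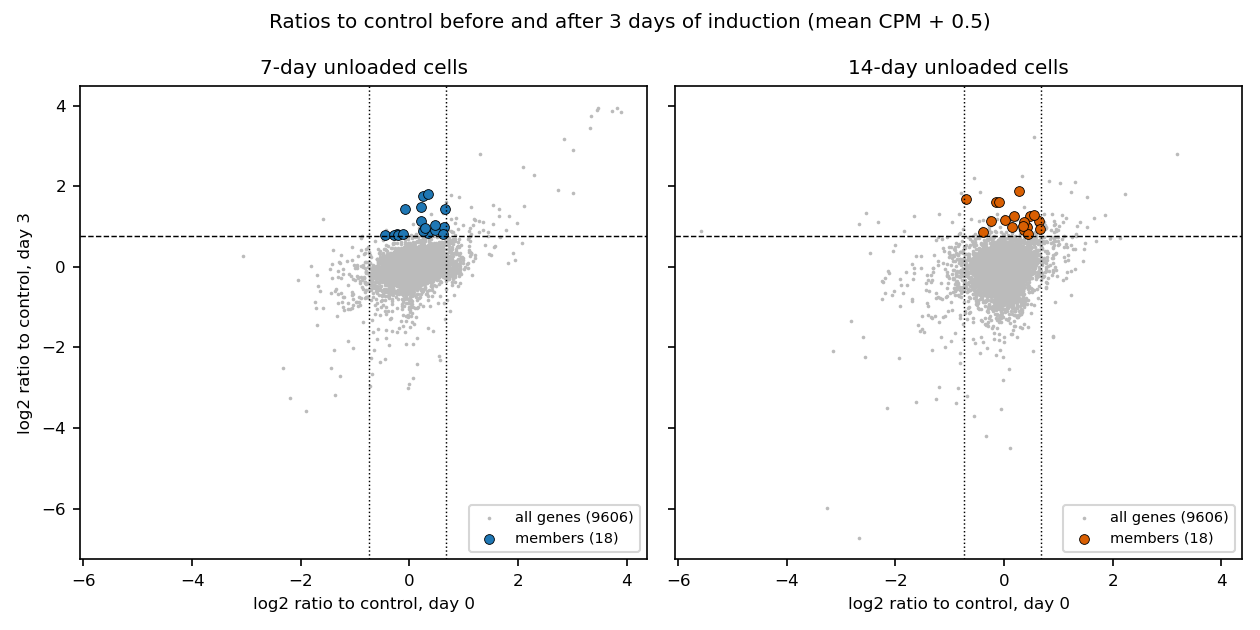
Each point is 1 of the 9606 genes with at least 5 CPM in HS14 cells at day 3. The horizontal axis is the log2 ratio to control at day 0 and the vertical axis the log2 ratio at day 3 (mean CPM + 0.5), for HS7 cells (left) and HS14 cells (right); the dashed line is the 1.7 limit and the dotted lines are the limits of 0.6 and 1.6. The 18 members (coloured) sit above the dashed line in both panels, many of them close to it, and between the dotted lines.

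The ratios that chose the members are a description and carry no test. At day 3 the ratio to control ran from 1.72 to 3.47 in HS7 cells, with a median of 1.90, and from 1.75 to 3.70 in HS14 cells, with a median of 2.20. Both ratios were at least 2 in 5 members, and at least 3 in member 1 alone. All 4 unloaded libraries lay above both control libraries at day 3 in 18 of 18 members, against 14.0% of the 13215 genes tested, but the limits nearly fix that count. Many members lie close to the limit. The 3 just inside it had lower ratios of 1.72, 1.73 and 1.73, and the 3 genes just outside it, with day 0 ratios inside their limits, had 1.699, 1.692 and 1.668.

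Before induction the members were near control, but not all of them were level with it. The day 0 ratio ran from 0.735 to 1.58 in HS7 cells (median 1.19) and from 0.611 to 1.59 in HS14 cells (median 1.24), and both ratios were over 1 in 9 members. All 4 unloaded libraries were already above both control libraries at day 0 in 8 of the 18, against 15.2% of the genes tested. These were members 3, 4, 6, 8, 9, 10, 12 and 13. In 1 of the 18, member 17, all 4 were below, against 2247 of the 13215 genes tested. Closest to the day 0 limits were member 8, at 1.58 and 1.59, and member 17, at 0.611 in HS14 cells; the nearest genes outside had ratios of 1.64 and 1.66. In the 8 members named above as separated, the unloaded libraries were thus not above control at day 3 alone. The day 0 gap was not tested, and it was narrow in some libraries and wider in others. In member 10 the higher control library stood at 21.3 CPM and the lower HS7 library at 22.1 CPM, but the HS14 libraries at 33.4 and 31.0 CPM. In member 9 the higher control library stood at 21.8 CPM and the lowest unloaded library at 25.6 CPM. Members 1, 2 and 5 had between 0 and 12 counts in both libraries of a group together at day 0, so a difference there was not detectable at this depth. The added 0.5 moves ratios toward 1, most of all at such low counts. With the plain means, 6 members (1, 2, 5, 8, 11 and 13) had a day 0 ratio outside the limits. Members 8, 11 and 13 had more counts, and their highest plain ratios, 1.65, 1.601 and 1.62, were just over the limit.

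**Figure D2:**
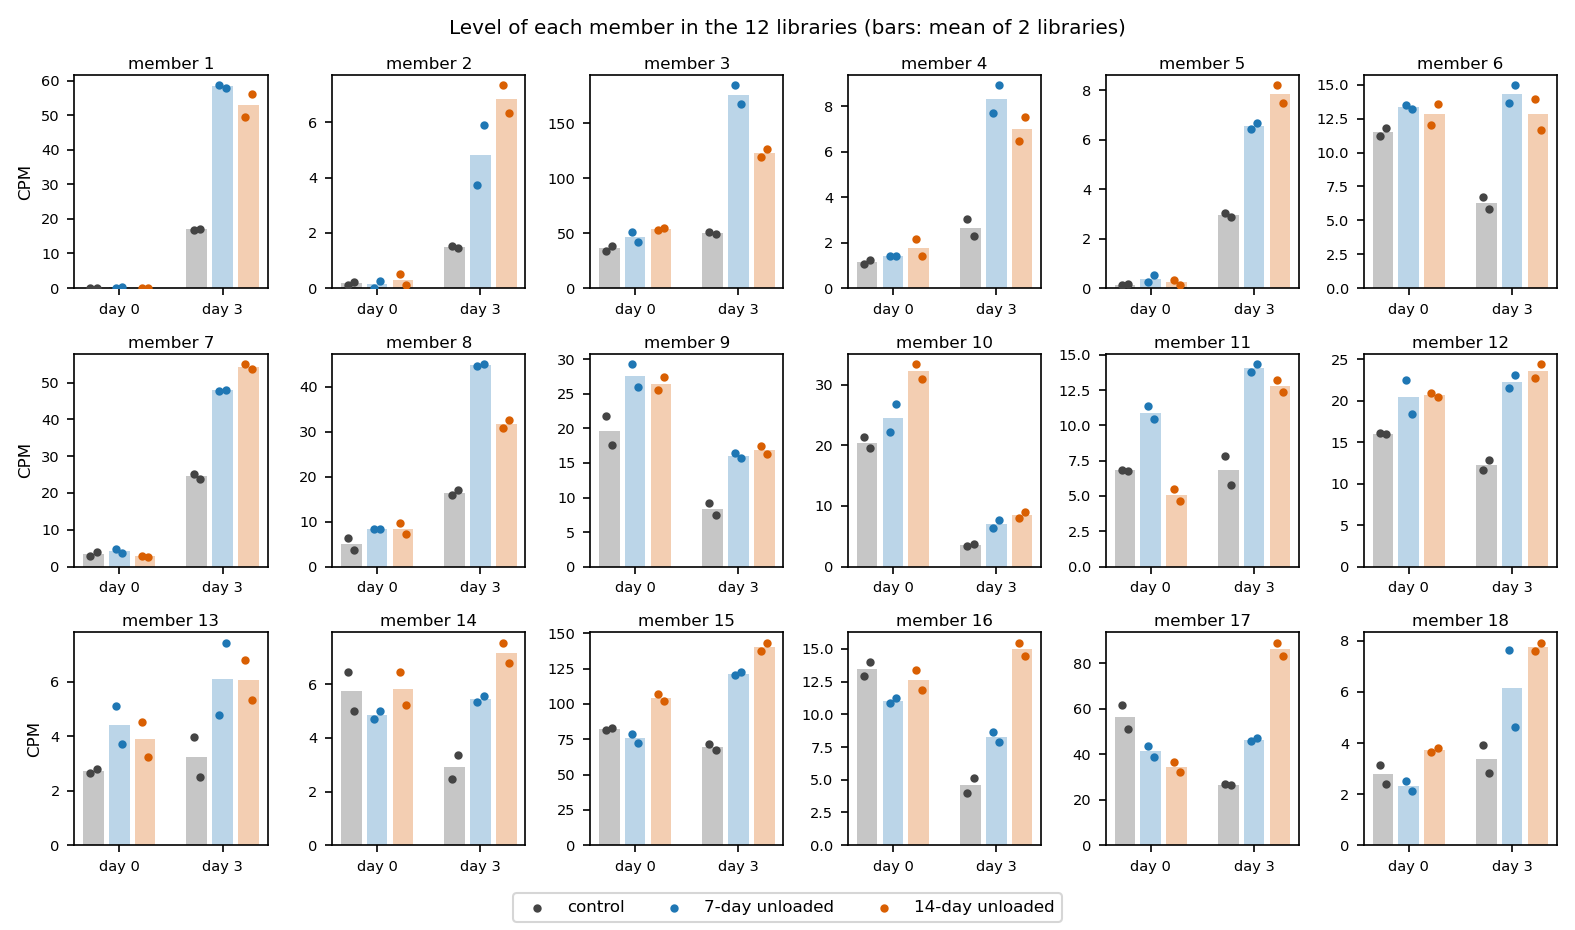
Each panel shows 1 member: the vertical axis is its level in CPM, from 0, on a scale of its own; points are single libraries and bars the means of 2 libraries, for control (grey), HS7 (blue) and HS14 cells (orange) at day 0 and day 3. Members 1 to 5, 7 and 8 are higher at day 3 than at day 0 in each treatment, while members 6, 9, 10, 12 and 14 to 17 are lower at day 3 in control cells.

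Together the members took a small share of the RNA. In control cells their share of all counts was 0.0284% ± 0.000944 before induction and 0.0263% ± 0.000801 after it (SD, n = 2). In HS7 cells this share went from 0.0297% ± 0.00179 to 0.0614% ± 0.000442, and in HS14 cells from 0.0329% ± 0.00115 to 0.0621% ± 0.000665 (SD, n = 2). Members 3, 15 and 17 supplied 54.8% to 61.6% of these counts, so the sum mostly follows them. The rule limits the ratio of each member to control at both days. How the shares stand to control is thus nearly fixed and is a description only. The replicates of a day 3 group differed by a median factor of 1.08 over the members, and by at most 1.65, in member 18 in HS7 cells. In bulk RNA, more cells of a kind and more RNA per cell cannot be told apart.

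The rule leaves undecided how the day 3 gap came about. Unloaded cells could rise more, control cells could fall alone or fall further, or both. Part of the gap could also stand at day 0 already, within the day 0 limits. The change from day 0 to day 3 was tested within each treatment with edgeR's quasi-likelihood test over all 13215 genes, at a Benjamini-Hochberg FDR of 0.05, with libraries scaled by TMM. In control cells 7 members rose, where 25.8% of all genes tested rose, and 8 fell, where 26.8% fell; 3 did not pass the test. In HS7 cells 10 rose (24.8% of all genes) and 3 fell (26.9%), and in HS14 cells 12 rose (27.7%) and 2 fell (28.1%). The median fitted log2 change of the 18 was 0.11 in control cells, 0.60 in HS7 cells and 1.19 in HS14 cells, against 0.00, -0.01 and 0.01 over all genes. The choice favours a low control level and high unloaded levels at day 3, and its day 3 limit of 1.7 exceeds its day 0 limit of 1.6. On the scale of the rule, each member's change in unloaded cells thus had to exceed its change in control cells. That control cells had the lowest median and the fewest rises was nearly fixed in advance. These counts therefore describe the members and support nothing further. Below, the members are sorted into 3 kinds by their call in control cells alone: a rise, a fall or neither.

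Members 1, 2, 3, 4, 5, 7 and 8 rose in all 3 treatments. Member 1, ENSRNOG00000050006, was nearly silent at day 0, with 0 and 2 counts in the control libraries, 0 and 5 in the HS7 libraries and 0 in both HS14 libraries. At day 3 it stood at 16.9 and 17.2 CPM in control cells, 58.6 and 58.0 CPM in HS7 cells and 49.6 and 56.3 CPM in HS14 cells. The unloaded libraries lie far above the control libraries, and those of HS7 and HS14 cells lie close together. Its rise in control cells was 306-fold, with a 95% exact counting interval of 86.2 to 2589 because only 2 counts stand behind the day 0 value (adjusted p = 3.89e-20, edgeR). In HS7 cells the rise was 363-fold, on 5 counts at day 0. In HS14 cells it was at least 721-fold, taking 3 counts over the group as the limit that 0 counts allow. It was at least 360-fold there if read pairs were counted as 2. The interval for control cells holds the HS7 value and both HS14 bounds, so the rises of the treatments cannot be ranked. These bounds cover counting error only, and the interval for control cells would be wider if read pairs were counted as 2.

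Member 5, ENSRNOG00000021586, also started from a few counts, 0.107 and 0.167 CPM in control cells, 0.253 and 0.514 in HS7 cells and 0.310 and 0.140 in HS14 cells at day 0. It reached 3.05 and 2.88 CPM in control cells, 6.44 and 6.65 in HS7 cells and 8.19 and 7.48 in HS14 cells. Its fitted log2 rise was 4.36 (SE 0.50) in control cells, 4.10 (SE 0.38) in HS7 cells and 5.16 (SE 0.39) in HS14 cells (adjusted p = 2.13e-09, 1.65e-11 and 4.21e-14, edgeR). The rises of control and HS7 cells differed by less than their standard errors, and they rest on 5 and 12 day 0 counts.

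Member 3 had many counts at both days and so the most precise changes of this kind. It stood at 34.1 and 38.1 CPM in control cells at day 0, and at 51.4 and 49.4 CPM at day 3. In HS7 cells it went from 50.7 and 41.6 to 184 and 168 CPM, and in HS14 cells from 52.5 and 54.2 to 120 and 127 CPM. All unloaded libraries exceeded the control libraries of the same day, at day 3 by over 2-fold and with HS7 cells highest. The ratio of plain means to control at day 0 was 1.28 in HS7 cells and 1.48 in HS14 cells. At day 3 this ratio was 3.50 in HS7 cells and 2.45 in HS14 cells. The log2 rise was 0.47 (SE 0.09) in control cells, 1.96 (SE 0.08) in HS7 cells and 1.26 (SE 0.08) in HS14 cells (adjusted p = 2.06e-05, 7.49e-22 and 1.31e-16, edgeR).

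Member 7 rose from 2.93 and 3.90 to 25.3 and 23.7 CPM in control cells, a log2 rise of 2.83. In HS7 cells it rose from 4.81 and 3.73 to 47.6 and 48.0 CPM (log2 3.51), and in HS14 cells from 2.99 and 2.61 to 55.0 and 53.6 CPM (log2 4.34). At day 0 the control libraries overlap those of HS7 and of HS14 cells, while the HS14 libraries lie below the HS7 libraries; at day 3 no groups overlap. Member 8 rose from 6.40 and 3.79 to 15.9 and 17.0 CPM in control cells, from 8.36 in both libraries to 44.6 and 45.1 CPM in HS7 cells, and from 9.60 and 7.17 to 30.8 and 32.6 CPM in HS14 cells. The last of the 7, members 2 and 4, were low throughout, at most 7.34 and 8.91 CPM in any library. The log2 rise of member 4 was 1.19 (SE 0.33) in control cells, 2.59 (SE 0.29) in HS7 cells and 2.04 (SE 0.27) in HS14 cells. That of member 2 was 3.11 (SE 0.66), 5.19 (SE 0.60) and 4.56 (SE 0.47), on 6, 4 and 12 counts at day 0. Its HS7 rise was 4.21 without the first HS7 library of day 0; without the second, no counts are left at day 0 and the fold cannot be given. Leaving out 1 HS14 library of day 0 moved its HS14 rise to 6.16 (first) or 3.77 (second).

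Members 6, 12, 14, 15, 16 and 17 fell in control cells and, apart from member 16 in HS7 cells, passed as a fall in neither unloaded group. With members 9 and 10, which fell in all 3 treatments, they make up the 8 that fell in control cells. In members 6, 12 and 14 the unloaded cells passed the test in neither direction. In members 6 and 12 all 4 unloaded libraries were above both control libraries at day 0 already. Member 6 went from 11.2 and 11.8 to 6.75 and 5.81 CPM in control cells (log2 change -0.89, SE 0.17, adjusted p = 2.38e-05, edgeR). In HS7 cells it stood at 13.5 and 13.2 CPM at day 0 and 13.6 and 14.96 CPM at day 3, and in HS14 cells at 12.03 and 13.6 and then 14.0 and 11.7 CPM. The control libraries at day 3 are the only ones under 11 CPM. Member 14 fell by 0.99 on the log2 scale in control cells. Member 12 fell there by 0.40 (adjusted p = 0.0111, edgeR), a call that was lost without the first control library of either day, with adjusted p = 0.103 at the highest. Its log2 change in HS14 cells, 0.24 (adjusted p = 0.0804, edgeR), passed as a rise in a fit of the groups compared alone (adjusted p = 0.041) and in no other alternative.

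Member 17 moved in opposite directions. It went from 61.8 and 51.1 to 27.0 and 26.4 CPM in control cells, a log2 change of -1.09 (SE 0.10, adjusted p = 4.08e-12, edgeR). In HS14 cells it rose from 36.6 and 32.0 to 89.1 and 83.2 CPM, a log2 change of 1.39 (SE 0.09, adjusted p = 6.65e-16, edgeR). In HS7 cells it stood at 43.7 and 39.0 CPM at day 0 and 45.9 and 47.0 CPM at day 3, a log2 change of 0.20 that did not pass the test (adjusted p = 0.0802, edgeR); without the first HS7 library of day 0 it did (adjusted p = 0.0416). The order of the groups turned over: control cells were highest at day 0 and lowest at day 3. Member 15 also moved both ways, with smaller changes. It went from 81.8 and 82.8 to 71.4 and 67.5 CPM in control cells (log2 change -0.26, adjusted p = 0.00191, edgeR), from 78.8 and 72.5 to 120 and 122 CPM in HS7 cells (0.71, adjusted p = 2.42e-11), and from 107 and 102 to 137 and 143 CPM in HS14 cells (0.48, adjusted p = 4.97e-08).

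Member 16, ENSRNOG00000005960, went from 12.9 and 14.0 to 3.97 and 5.15 CPM in control cells, a log2 change of -1.56 (SE 0.17, adjusted p = 1.11e-09, edgeR). In HS7 cells it went from 10.8 and 11.3 to 8.64 and 7.88 CPM (log2 change -0.39, adjusted p = 0.0464), and in HS14 cells from 13.4 and 11.8 to 15.5 and 14.5 CPM (0.31, adjusted p = 0.0755). At day 3 the 3 treatments do not overlap, with control cells lowest and HS14 cells highest. The HS7 call was lost in 11 of 20 alternative settings, among them the replicate block (adjusted p = 0.0519) and the fits without either HS7 library of day 0 or day 3 or without the second control library of day 0 (adjusted p up to 0.174). The HS14 rise passed on halved counts and in a fit of the groups compared alone (adjusted p = 0.0454 at the lowest).

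Members 9 and 10 fell in every treatment. Member 10, ENSRNOG00000018951, went from 21.3 and 19.5 to 3.44 and 3.72 CPM in control cells, from 22.1 and 26.8 to 6.44 and 7.69 CPM in HS7 cells, and from 33.4 and 31.0 to 8.08 and 8.99 CPM in HS14 cells. The unloaded libraries were above the control libraries at both days. The log2 change was -2.52 (SE 0.17) in control cells, -1.77 (SE 0.15) in HS7 cells and -1.85 (SE 0.14) in HS14 cells (adjusted p = 1.27e-15, 8.73e-13 and 2.65e-14, edgeR). Member 9 fell by 1.26 on the log2 scale in control cells, by 0.76 in HS7 cells and by 0.59 in HS14 cells.

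Members 11, 13 and 18 passed the test in control cells in neither direction and rose in HS14 cells, by 1.39, 0.70 and 1.11 on the log2 scale. Member 18 also rose in HS7 cells, by 1.43 (adjusted p = 3.71e-05, edgeR). Member 11 stood at 6.82 and 6.80 CPM in control cells at day 0 and 7.81 and 5.81 CPM at day 3. In HS7 cells it went from 11.4 and 10.4 to 13.8 and 14.3 CPM, and in HS14 cells from 5.47 and 4.65 to 13.2 and 12.4 CPM, so HS7 and HS14 cells came to similar levels from opposite sides of control. Its HS7 rise of 0.39 (adjusted p = 0.0434, edgeR) was lost in 12 of 20 alternatives, among them the fits without any one HS7 or HS14 library or without the first control library of day 0 (adjusted p up to 0.178). The HS14 rise of member 13 (adjusted p = 0.0211, edgeR) was lost with DESeq2 and without the second HS14 library of day 0 or the first of day 3 (adjusted p up to 0.216).

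**Figure D3:**
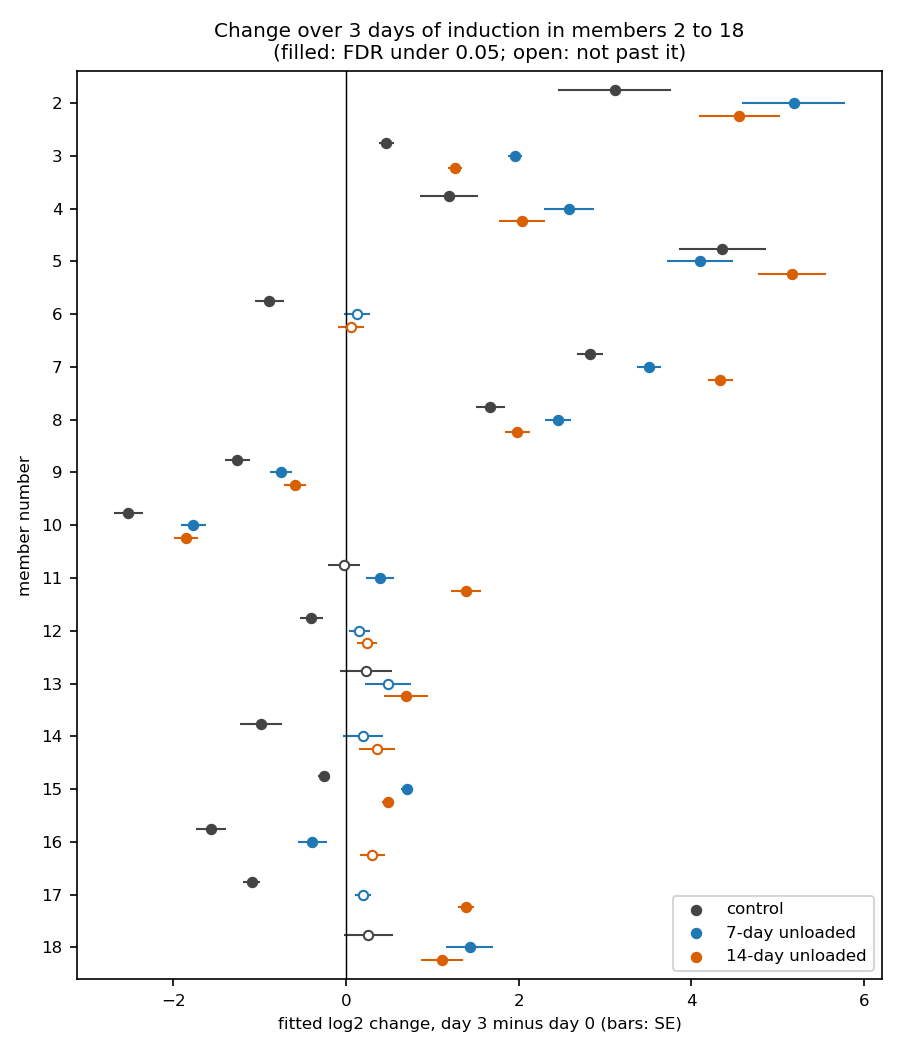
Fitted log2 change from day 0 to day 3 (horizontal axis) for members 2 to 18 (vertical axis) in control (grey), HS7 (blue) and HS14 cells (orange); bars are standard errors, filled points passed an FDR of 0.05 and open points did not. Member 1 is left out because it had 0 to 5 counts at day 0. Control points lie left of 0 for members 6, 9, 10, 11, 12 and 14 to 17, that of member 11 within its standard error of 0, and in member 5 the control and HS7 bars overlap.

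HS14 and HS7 cells were also compared with each other, a comparison that holds no control library and whose order the rule does not set, apart from the 5 CPM asked of HS14 cells. At day 3, 4 of 18 members were higher in HS14 cells, where 11.6% of all genes tested were higher, and 2 were lower, where 11.0% were lower; 12 did not pass the test. The largest differences were those of members 17 and 16, with log2 differences of 1.00 (SE 0.09, adjusted p = 4.31e-11, edgeR) and 0.97 (SE 0.16, adjusted p = 1.16e-05). Member 15 was higher by 0.32 (adjusted p = 0.000239) and member 3 lower by a log2 difference of -0.40 (adjusted p = 7.58e-05). The calls of member 7 (0.30, adjusted p = 0.036) and member 8 (-0.38, adjusted p = 0.0257) were each lost without any one of the 4 libraries compared (adjusted p up to 0.219 and 0.202) and with DESeq2, and that of member 7 also with scaling to the total count. That scaling moved the median gene of this comparison by -0.112 on the log2 scale.

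At day 0, HS14 cells were higher than HS7 cells in 3 members (5.47% of all genes tested) and lower in 1 (6.26%). Member 15 was higher by 0.55 on the log2 scale (adjusted p = 1.17e-07, edgeR) and member 11 differed by -1.02 (adjusted p = 7.06e-05). The calls of member 10 (0.48, adjusted p = 0.0079) and member 3 (0.29, adjusted p = 0.0158) depended on single libraries. That of member 10 was lost without the first HS7 or the first HS14 library of day 0 (adjusted p up to 0.169), and that of member 3 without the second HS7 library or either HS14 library of day 0, with scaling to the total count and in a fit of these groups alone (adjusted p up to 0.265).

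The test of the difference between the HS14 and the HS7 response to induction found a more positive response in HS14 cells in 4 members (4.14% of all genes tested) and a more negative one in 1 (4.44%). Without the second HS14 library of day 0 the 4 became 2, as the calls of members 7 and 16 were lost. The call of member 7 was also lost without the first HS7 library of day 0, and that of member 16 in 10 of 20 alternatives. Member 17 had the largest of these differences, 1.19 on the log2 scale (SE 0.13, adjusted p = 2.18e-08, edgeR), followed by member 11 with 1.00 (SE 0.24, adjusted p = 0.00489). In member 17 the level differed at day 3, while the day 0 difference of HS14 and HS7 cells, -0.19 on the log2 scale, did not pass the test (adjusted p = 0.235). In member 11 the day 0 levels differed and the day 3 levels did not pass the test (log2 difference -0.02, adjusted p = 0.942). Member 3 had the smaller response in HS14 cells, by a log2 difference of -0.70 (SE 0.11, adjusted p = 3.07e-05). For member 1 this test says little, as HS14 cells had 0 counts and HS7 cells 5 at day 0.

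**Figure D4:**
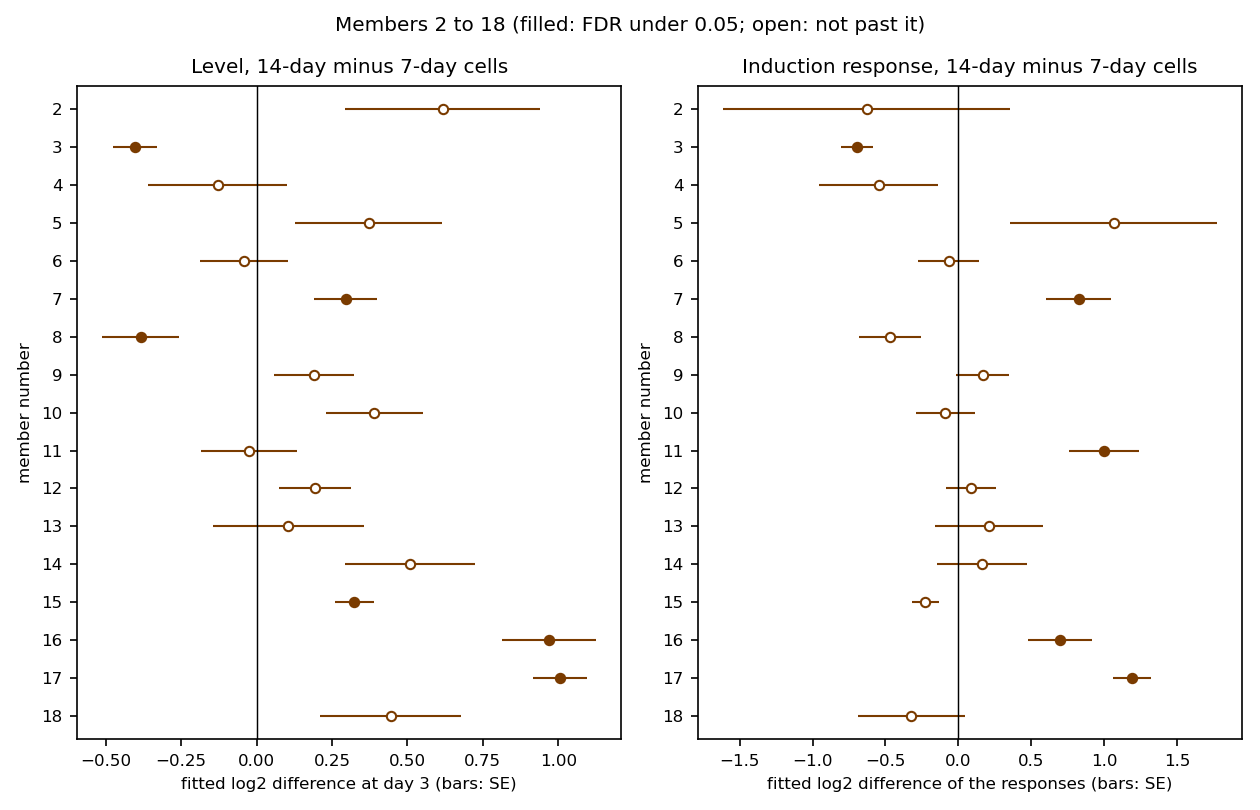
Left, fitted log2 difference between HS14 and HS7 cells at day 3; right, difference between their responses to induction (day 3 minus day 0); both for members 2 to 18 (vertical axes), with standard errors as bars, filled points past an FDR of 0.05 and open points not past it. Members 16 and 17 lie near 1 on the left, at 0.97 and 1.00, and member 3 lies below 0 in both panels, at -0.40 and -0.70.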

How the data were processed

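Poly(A) RNA of 12 libraries was sequenced with a stranded mRNA kit and reads of 51 bp, per the labels. The authors deposited raw counts for 32622 Ensembl identifiers, 15105521 to 21484885 per library. STAR 2.7 and featureCounts 1.6.4 with the build Rnor_6.0, besides FastQC 0.11.9 and DESeq2, appear as names per the submitters' processing notes. Settings, strand included, were not given in the sources used here, so overlapping genes and near-identical copies may share reads. In each library 68.3% to 70.6% of counts from 1 to 20 were even, so halved counts were tried.

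CPM used the library total. edgeR 4.0.16 (R 4.3.3) fitted 6 group means to 12 libraries (filterByExpr, 13215 genes; TMM; glmQLFit, glmQLFTest; 6 residual degrees of freedom; Benjamini-Hochberg FDR 0.05 within each of 6 comparisons). All 18 members passed the filter, which the 5 CPM limit made likely. DESeq2 1.42.0 was an alternative. Counting bounds take 3 counts for a group at 0.

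The members and the lists were chosen with earlier results of these data known. Of the identifiers, 0 matched the RefSeq gene table, so the 32 gene lists, the marker lists among them, and 8 promoter motifs could not be used. The rule for named genes took the members with the highest ratios, the highest levels, the largest differences and those nearest the limits; identifiers were printed only for the 2 largest rises and falls in control cells.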

Additional observations from a re-analysis of the deposited data

Results flagged for a closer look

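In 5 members the response to induction differed between HS14 and HS7 cells by the test of that difference itself (edgeR's quasi-likelihood test, log2 response of HS14 minus that of HS7 cells). The difference was 1.19 in member 17, 1.00 in member 11, 0.82 in member 7 (adjusted p = 0.0147), 0.70 in member 16 (adjusted p = 0.0421) and -0.70 in member 3. For member 7 the call was lost without the first HS7 or the second HS14 library of day 0 (adjusted p up to 0.131). For member 16 it was lost in 10 of 20 alternatives, among them the replicate block (adjusted p = 0.0519), the fits without the second HS7 library of day 0, either HS7 library of day 3, the second HS14 library of day 0 or either HS14 library of day 3 (adjusted p up to 0.161). With 2 libraries per group no library can be tested as an outlier.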

How the results depend on the processing

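Of 57 single changes and differences tested here that passed the threshold, 47 passed it in each of the 20 alternatives, and none of the printed values changed sign. The number of members moved most with the day 3 limit: 5 genes passed at a limit of 2 and 44 at 1.5. TMM-scaled CPM gave 19 genes, 16 of them among the 18, and adding 1 in place of 0.5 gave 19, 14 of them shared. Leaving out 1 library gave 16 to 26, most without the first control library of day 3. Between HS14 and HS7 cells at day 3, DESeq2 found 1 member lower in place of 2, and leaving out 1 library 1 to 2; at day 0, scaling to the total count found 2 lower in place of 1, and leaving out 1 library gave 1 to 2 lower and 1 to 3 higher. The more positive responses in HS14 cells numbered 2 to 4 when 1 library was left out. The cause was not tested. The counts of rises and falls over induction stayed within 1.5 times in each alternative.

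With the replicate number as a block, 2 of the printed calls were lost, both of member 16 (log2 change -0.39 in HS7 cells and difference of responses 0.70, adjusted p = 0.0519 for each). Same-numbered libraries did not deviate together. Over 15 pairs of groups the correlation across genes of the deviations of the first libraries ran from -0.051 to 0.041. The labels do not say whether equal numbers share an animal or a dish. This check cannot decide it, since the scatter between libraries may be technical. Depth limits members 1, 2 and 5 at day 0. The rule applied to the first library of each group alone chose 25 genes, 12 of them among the 18. Applied to the second library alone it chose 26, 14 of them among the 18. Only 8 genes were chosen in both cases, so the choice depends much on the library. This alternative was added after the data had been seen.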
